A study of Mus musculus with 16 samples.

Results

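Klf2 and Klf6 encode Kruppel-like factors, and they were taken by symbol as 2 of the 10296 genes in the deposited table. They were chosen by name with the measured levels of these libraries, and how they differ between tissues, already in view, so the tissue values of both genes are given as a description, without a p-value. Neutrophils are short-lived phagocytes, and here they had been sorted as CD45+ CD11b+ Ly6G+ cells from blood, spleen and lung of C57BL/6 mice. Some mice were germ-free (GF), that is without any microbes, and others were specific pathogen free (SPF), that is colonised by a microbiota but clear of listed pathogens, and the labels give no age, no further treatment and no genetic change. Sequencing of amplified RNA gave 16 libraries, with 2 each from GF blood and SPF blood and 3 each from GF spleen, SPF spleen, GF lung and SPF lung. Nothing in the labels ties each library of a group to its own animal, and the spread that the p-values use may therefore be technical.

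Kruppel-like factors are transcription factors that bind GC-rich and CACCC-containing DNA through zinc fingers at their C-terminus, a fold they share with the Sp factors. KLF2 is best known for holding T cells and monocytes in a resting state and for keeping endothelium quiescent under blood flow, where the MEK5-ERK5 kinase cascade and MEF2 factors induce it. KLF6 is expressed in most tissues as an early response gene, and in macrophages it is known as a partner of NF-kB in inflammatory gene expression.

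Klf2 (ENSMUSG00000055148) lies on chromosome 8 at 72319033 to 72321656 and Klf6 (ENSMUSG00000000078) on chromosome 13 at 5861482 to 5870394, both on the plus strand of GRCm38 (mm10). The gene annotation gives Klf2 1 transcript with 3 exons and Klf6 3 transcripts, 1 of them protein-coding, with 5 merged exons. The sequence just before each start site is shown because it holds the binding motifs for which both genes were searched. Each run covers 250 to 31 bases before the start site in RefSeq (GRCm38.p6), at chr8:72318812-72319031 and chr13:5861239-5861458, and capitals mark motif matches on either strand.
Klf2: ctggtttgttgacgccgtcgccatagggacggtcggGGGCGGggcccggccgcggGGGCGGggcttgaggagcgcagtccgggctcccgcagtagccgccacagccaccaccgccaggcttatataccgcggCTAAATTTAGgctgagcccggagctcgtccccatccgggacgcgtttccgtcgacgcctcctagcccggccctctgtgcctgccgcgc
Klf6: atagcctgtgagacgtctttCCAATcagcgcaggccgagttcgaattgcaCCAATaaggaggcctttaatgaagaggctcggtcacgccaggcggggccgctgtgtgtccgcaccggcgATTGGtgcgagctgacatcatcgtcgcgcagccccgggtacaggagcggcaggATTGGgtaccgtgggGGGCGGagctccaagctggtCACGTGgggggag

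The searched motifs were the MEF2 consensus, the CArG box, the GC box GGGCGG, the CCAAT box CCAAT, the E-box CACGTG, the CACCC box CCACCC, the cAMP response element TGACGTCA and the NF-kB consensus, each on both strands. The Klf2 run holds 1 MEF2 consensus match, which starts 118 bases before the start site and which 2.57% of 32524 promoter windows of the same length also hold. It has 2 GC boxes, at 214 and 195 bases before the start, a motif found in 28.7% of windows. The Klf6 run holds 4 CCAAT boxes, 2 of them on each strand, at 230, 200, 131 and 78 bases before the start, and 31.0% of windows hold at least 1. It also has 1 GC box at 63 and 1 E-box at 43 bases before the start, and the E-box is found in 5.02% of windows. The CACCC box, CArG box, cAMP response element and NF-kB consensus were not found in either run. These matches describe letters in a window and do not show that a factor binds there.

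A level below is in normalised counts, that is the deposited number after removal of the 0.5 reads that it contains for every gene. Depth differed between tissues, with medians of 2712907 recovered reads per library for blood, 856319 for lung and 199487 for spleen. Of the 16 libraries, 5 were under 250000 reads (GF blood 3, GF spleen 1 and 4, SPF spleen 1 and 4). Neutrophil markers (11 genes) were present at a summed level of 30661 or more in every library. They were lower in lung, at 30661 to 52490 against 52046 to 91347 in blood and 46111 to 103752 in spleen.

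Klf6 was the abundant member, was lowest in lung neutrophils and had its highest mean level in blood neutrophils. Its level was 1510 and 1207 in GF blood and 1903 and 1489 in SPF blood. In spleen it was 1172, 1237 and 1255 in GF mice and 739, 1084 and 1209 in SPF mice. In lung it was 636, 860 and 818 in GF mice and 702, 848 and 589 in SPF mice. All 6 lung libraries were below all 4 blood libraries, whereas 1 spleen library, SPF spleen 1, lay within the lung range and 3 others at or above the lowest blood library. In every library Klf6 stood between the 97.3rd and 98.9th percentile of the listed genes, and it rested on 97 to 4213 reads.

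On the log2 scale the description of Klf6 was as follows. Lung minus blood was -0.82 (SE 0.22) in GF mice and -1.25 (SE 0.22) in SPF mice, and -1.04 (SE 0.16, 95% interval -1.36 to -0.71) over both. Lung minus spleen was -0.68 (SE 0.20) in GF and -0.49 (SE 0.20) in SPF mice, and -0.58 (SE 0.14) over both. Spleen minus blood was -0.14 (SE 0.22) in GF and -0.76 (SE 0.22) in SPF mice, and -0.45 (SE 0.16) over both. Lung was lowest in both kinds of mice. The blood and spleen libraries overlapped, and with quantile normalization the step from blood to spleen shrank to -0.11. In GF mice that step was 0.014 without GF blood 2 and -0.30 without GF blood 3, so the order of blood and spleen could not be told there. Of 8299 tested genes, 5.55% had all lung libraries below all blood libraries, and 8.11% were called lower in lung than in blood. Both shares come from the contrast with which the genes were chosen and are printed for scale.

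**Figure D1:**
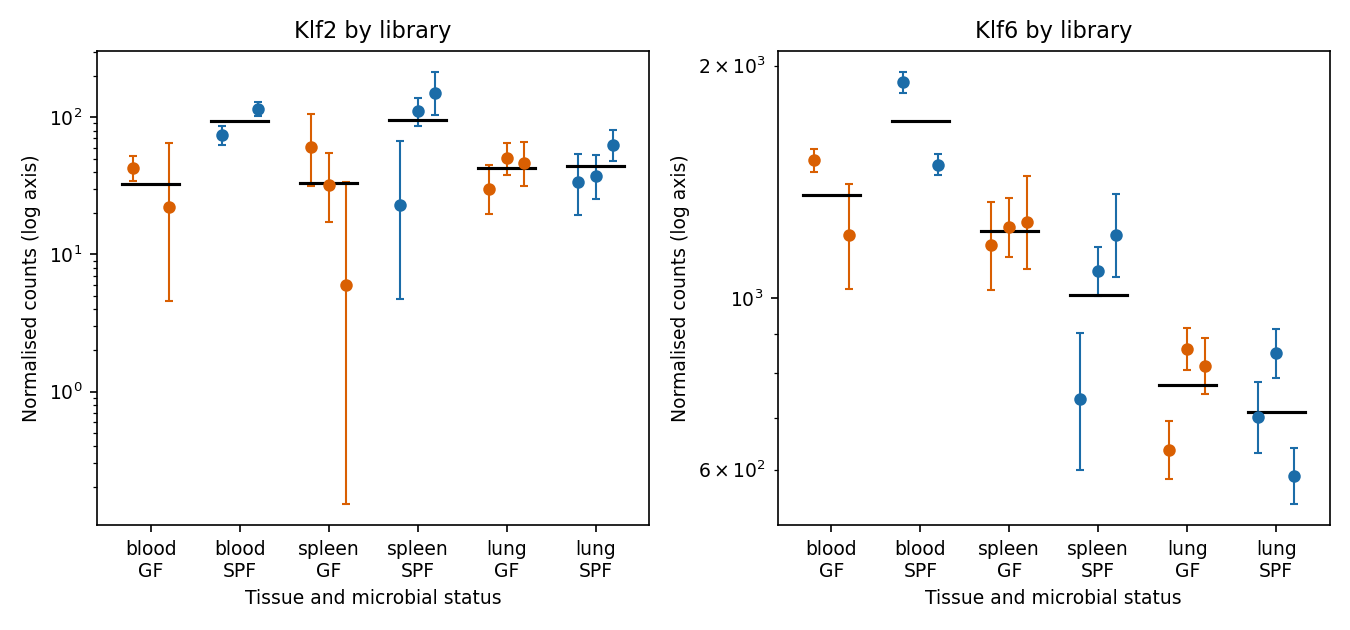
Level of Klf2 (left) and Klf6 (right) in each of the 16 libraries, in normalised counts on a log axis, by tissue and status (orange GF, blue SPF). Bars are 95% Poisson intervals from the recovered reads, covering counting error only, and black lines are group means. Klf6 lies at 589 to 860 in lung and 1207 to 1903 in blood. Klf2 lies at 73.6 and 115 in SPF blood and at 42.6 and 22.2 in GF blood, and the GF spleen library with 1 read reaches down to 0.152.

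Lung libraries also carried markers of other cells, which were high where Klf6 was low. Of 14 listed endothelial markers, 8 were in the table. They summed to 698 to 2174 in lung, 22.2 to 37.2 in blood and 14.1 to 45.7 in spleen, where Cav1, Cldn5, Egfl7, Kdr and Ramp2 were at 0 in all 6 libraries. The 6 epithelial markers in the table (of 8 listed), chiefly surfactant genes, summed to 2643 to 11007 in lung against 10.2 to 37.0 in blood and 4.47 to 20.3 in spleen. The 4 stromal markers in the table (of 8 listed) reached 309 to 661 in lung and at most 1.40 in blood and 10.1 in spleen, and the 5 B cell markers reached 36.1 to 115 in lung against 4.06 to 12.2 in blood. In blood, by contrast, the 9 erythroid and platelet markers summed to 44309 to 99526, compared with 47.8 to 2080 in lung and 48.1 to 21992 in spleen. The 7 macrophage markers summed to 758 to 928 in lung, 517 to 1317 in blood and 997 to 1375 in spleen, and 4 eosinophil, basophil and mast cell markers to 120 to 267 in lung against 59.3 to 130 in blood. Of 10 listed T and NK cell markers only 3 were in the table, and their sum stayed between 4.42 and 18.97 in all libraries. The part of these markers in the tissue values of either gene was not tested, and in such bulk samples fewer cells of a type and less RNA per cell cannot be told apart.

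Klf2 was much lower and varied more between libraries of a group. Its level was 42.6 and 22.2 in GF blood and 73.6 and 115 in SPF blood. In spleen it was 60.9, 32.1 and 6.01 in GF mice and 22.9, 110 and 151 in SPF mice. In lung it was 30.2, 50.4 and 46.4 in GF mice and 33.5, 37.3 and 62.5 in SPF mice. The spleen thus held both the lowest and the highest Klf2 library, and the lung libraries lay closest together. These values rested on 1 to 294 reads (median 32), with under 20 reads in 6 libraries, and Klf2 ranged from the 31.5th to the 91.0th percentile within a library.

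In SPF spleen the counting intervals of Klf2 did not all overlap. The 3 reads of SPF spleen 1 gave a 95% Poisson interval of 4.72 to 66.8, below that of SPF spleen 2 (86.5 to 138) and SPF spleen 4 (103 to 212). In GF spleen the intervals of libraries 1 (31.4 to 106), 3 (17.1 to 54.9) and 4 (0.152 to 33.5) all overlapped. The intervals treat reads as independent, although the amplified libraries carried no molecular identifiers.

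No order of the tissues could be told for Klf2. The medians were 58.1 in blood, 46.5 in spleen and 41.8 in lung, and the standard deviations were 40.5 (n = 4), 56.1 (n = 6) and 12.1 (n = 6), so no neighbours differed beyond their spread. Lung minus blood was 0.32 (SE 0.72) in GF and -1.07 (SE 0.72) in SPF mice on the log2 scale, and -0.37 (SE 0.51, 95% interval -1.45 to 0.71) over both. Spleen minus blood was -0.27 (SE 0.51) and lung minus spleen -0.10 (SE 0.45) over both kinds of mice. Endothelium is known for Klf2, and the lung libraries that held 698 to 2174 normalised counts of endothelial markers had a Klf2 level of 30.2 to 62.5, inside the range of blood. The part of endothelial cells in that Klf2 level was not tested.

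Per kilobase of exon, Klf6 exceeded Klf2 in all 3 tissues. The median level per kilobase, over 1.847 kb of exon for Klf2 and 4.391 kb for Klf6, was 31.4 for Klf2 and 341 for Klf6 in blood. It was 25.2 and 271 in spleen, and 22.7 and 173 in lung. The lowest Klf6 value per kilobase in any library (134, in lung) was above the highest Klf2 value (81.6, in spleen).

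Klf2 was lower in GF than in SPF neutrophils on average, but the difference did not pass the adjusted threshold. The question here is whether the microbiota moves either factor. The levels in GF and SPF libraries were also in view when the genes were chosen. The status p-values of both genes and of their ratio are therefore not independent of that choice and are printed for scale. In blood the GF libraries (22.2 and 42.6) were below the SPF libraries (73.6 and 115), a gap that 30.5% of all tested genes show in this direction with 2 libraries against 2. In spleen the GF libraries (6.01 to 60.9) overlapped the SPF libraries (22.9 to 151), and in lung the values were 30.2 to 50.4 and 33.5 to 62.5. GF minus SPF was -1.44 (SE 0.79, adjusted p = 0.383) in blood on the log2 scale and -1.48 (SE 0.64, adjusted p = 0.364) in spleen, from limma with Benjamini-Hochberg adjustment. In lung it was -0.05 (SE 0.64, 95% interval -1.42 to 1.31, limma adjusted p = 0.999).

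The mean of the GF minus SPF difference of Klf2 over the 3 tissues was -0.99 (SE 0.40, 95% interval -1.84 to -0.14; limma adjusted p = 0.248). For scale, 1.39% of tested genes were called in that mean, 1.33% in blood alone, 0.325% in spleen and 0.0241% in lung. An exact permutation of the status labels within tissues gave p = 0.0483 for Klf2 (2400 arrangements, two-sided, smallest possible p 0.000833) and an adjusted p of 0.0725 over 3 quantities. Klf2 passed the threshold under 3 of 29 alternatives, and each of these also called more genes than the main fit (115 of 8299). The counts were 276 of 8299 with array weights, 194 of 7587 without the 5 libraries under 250000 reads and 367 of 8096 without SPF spleen 1. With array weights, which give noisy libraries less influence, the mean was -1.11 (limma adjusted p = 0.0272), and without the 5 libraries under 250000 reads it was -0.95 (limma adjusted p = 0.0357). Without SPF spleen 1 alone, the library with 3 reads of Klf2, it was -1.24 (limma adjusted p = 0.0212; 0.0325 in the exact permutation test), and spleen by itself was -2.23 (limma adjusted p = 0.0212). Without GF spleen 4, the library with 1 read of Klf2, the mean was -0.74 (limma adjusted p = 0.298) and spleen by itself was -0.73 (limma adjusted p = 0.639). In blood, a fit on its 4 libraries alone gave the same -1.44 a limma adjusted p of 0.00692, against 0.383 in the main limma fit. The share of all tested genes called in that fit, or in spleen by itself without SPF spleen 1, was not counted.

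The reads of a group were also pooled, which gives levels with counting error only and most weight to deep libraries. Klf2 was 41.3 (95% Poisson interval 33.4 to 50.6) in GF and 95.9 (87.3 to 105) in SPF blood, where 91 of the 94 GF reads came from 1 library. It was 33.8 (22.1 to 49.6) in GF and 107 (88.2 to 130) in SPF spleen, and 43.1 (35.5 to 51.7) in GF and 46.9 (38.5 to 56.5) in SPF lung. The GF and SPF intervals were apart in blood and spleen and overlapped in lung, but they leave out the spread between libraries. With that spread, limma's adjusted p was 0.383 in blood and 0.364 in spleen. The share of all tested genes with pooled intervals apart was not counted. The difference between tissues was not itself past the threshold. GF minus SPF in lung exceeded that in blood by 1.39 (SE 1.02, limma adjusted p = 0.788) and that in spleen by 1.43 (SE 0.91, limma adjusted p = 0.834), and spleen and blood differed by -0.03 (SE 1.02, limma adjusted p = 0.991). Of tested genes, 0.012%, 0.012% and 0.759% were called in these 3 interactions.

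Blood of GF and SPF mice also differed in other measures. GF blood held 81835 to 99526 normalised counts of erythroid and platelet markers against 44309 to 70443 in SPF blood, and 874 to 1317 of macrophage markers against 517 to 678. Neutrophil markers summed to 52046 and 67668 in GF and 76669 and 91347 in SPF blood. One GF blood library had 132798 reads, while the other 3 blood libraries had 2555255 to 3033941. The part of these measures in the Klf2 values was not tested.

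Klf6 showed no status difference past the threshold. GF minus SPF was -0.32 (SE 0.24, limma adjusted p = 0.544) in blood, 0.30 (SE 0.20, limma adjusted p = 0.577) in spleen and 0.12 (SE 0.20, limma adjusted p = 0.999) in lung. The mean over the tissues was 0.03, with a 95% interval of -0.22 to 0.29 (limma adjusted p = 0.923; exact permutation p = 0.795). The smallest adjusted p of the 3 interactions in limma was 0.373, for spleen against blood, where the difference was 0.62 (SE 0.31).

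A scaling factor of a library would cancel in a plain ratio of Klf2 to Klf6. It does not cancel fully here, since 1 was added to each value after scaling. The values also keep the read offset that the levels leave out. Klf2 in GF spleen 4 thus entered as 9.01 plus 1, against a level of 6.01. The log2 ratio, from values plus 1 and without a length correction, was -5.30 ± 0.27 (SD, n = 2) in GF blood and -4.17 ± 0.70 (n = 2) in SPF blood. In spleen it was -5.45 ± 1.41 in GF and -3.67 ± 0.95 in SPF mice (n = 3 each), and in lung -4.16 ± 0.15 and -3.99 ± 0.68 (n = 3 each). The GF and SPF values overlapped in spleen and lung and not in blood. The mean GF minus SPF difference was -1.02, with an exact permutation p of 0.025 and an adjusted p of 0.0725 over the 3 quantities. Leaving out SPF spleen 1 gave -1.21 (adjusted p = 0.0325, exact permutation), and leaving out SPF lung 2 gave -1.10 (adjusted p = 0.0425, exact permutation).

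**Figure D2:**
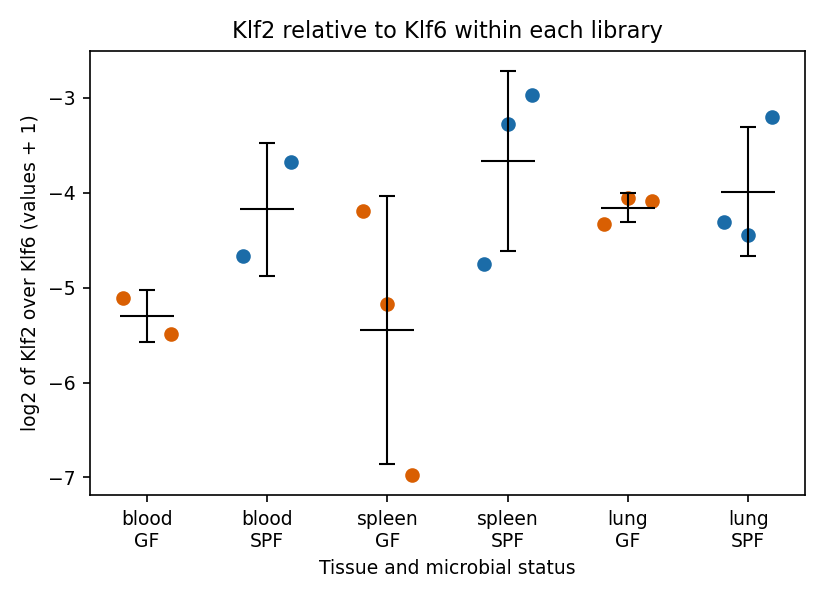
Log2 of Klf2 over Klf6 (each value plus 1) in each library, by tissue and status (orange GF, blue SPF), with black lines for the group mean and bars for the SD (n = 2 in blood, n = 3 elsewhere). GF blood averages -5.30 and SPF blood -4.17, GF spleen -5.45 and SPF spleen -3.67, and GF and SPF lung lie at -4.16 and -3.99.

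Among the other Kruppel-like and Sp factors, Klf4 and Sp1 were higher in lung than in blood and none was lower. Of 24 listed, 12 were in the table and 11 passed the filter on low values (Klf9 did not). In limma, 2 of the 11 were called in lung minus blood, with a median difference of 0.17, beside 24.6% of all 8299 tested genes (16.5% higher, 8.11% lower) and a median of 0.15 over them. Klf4, a factor of monocyte differentiation and epithelial barriers, had 0 reads in 3 blood libraries and in all 6 spleen libraries and 5 reads in SPF blood 3. Its lung level was 3.94 to 23.2 normalised counts, from 2 to 22 reads. Klf4 thus passed the filter on low values through lung libraries alone, so its calls are not independent of the filter. Lung minus blood was 2.49 (SE 0.55, limma adjusted p = 0.00101), and against a floor of 3 counts over all spleen libraries the pooled lung level was at least 7.65-fold higher. With all libraries thinned to the depth of the shallowest, neither call of Klf4 held (lung minus blood 0.63, limma adjusted p = 0.514; lung minus spleen 1.28, 0.0503).

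Sp1, a widely expressed activator at GC boxes, was 20.9 ± 11.6 (SD, n = 4) in blood and 46.1 ± 20.9 (n = 6) in lung, a difference of 1.05 (SE 0.34, limma adjusted p = 0.0222). The call of Sp1 was lost without GF blood 3 (limma adjusted p = 0.0925), SPF blood 3 (0.104), GF lung 2 (0.0858) or SPF lung 3 (0.0682), and with TMM scaling (0.0595), quantile normalization (0.0801) or equal depth (0.113). Sp3, a related factor at the same boxes, was lower in lung (51.5 ± 11.8, n = 6) than in spleen (84.9 ± 10.7, n = 6), by -0.75 (SE 0.21, limma adjusted p = 0.00961), and it lost its call at equal depth (-0.46, limma adjusted p = 0.523). Klf4 and Sp3 were the 2 of 11 called in lung minus spleen, with a median of 0.21 over the list, beside 17.3% of all tested genes and a median of 0.09.

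The other family members had levels without a call in any tissue mean. Klf3, a repressor that competes at CACCC sites, was at 352 ± 84.3 in blood (n = 4), 330 ± 225 in spleen and 334 ± 78.3 in lung (n = 6 each). The TGF-beta-induced factor Klf10 was 146 ± 52.0 in blood, 175 ± 73.1 in spleen and 189 ± 23.9 in lung. Klf7, Klf11, Klf13, Sp2 and Sp4 had tissue means between 10.3 (Sp4 in blood) and 71.7 (Klf7 in lung), and Klf5 between 3.28 and 4.74. In spleen minus blood limma called 0 of the 11 (2 at an unadjusted p under 0.05), beside 5.74% of all tested genes, and in the mean GF minus SPF difference 0 of the 11 (1 unadjusted), beside 1.39%. The share of called genes that were higher depended on scaling: in lung minus blood it was 67.1%, but 49.4% with TMM and 48.4% with quantile normalization. In lung minus spleen it was 72.5%, with 61.0% and 47.8% under the same settings, and in spleen minus blood 45.6%, with 32.1% under TMM and 55.2% under quantile normalization. The median over all tested genes in lung minus blood moved from 0.15 to -0.04 with TMM and -0.14 with quantile normalization, where Klf6 still had -1.23 and -0.81.

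**Figure D3:**
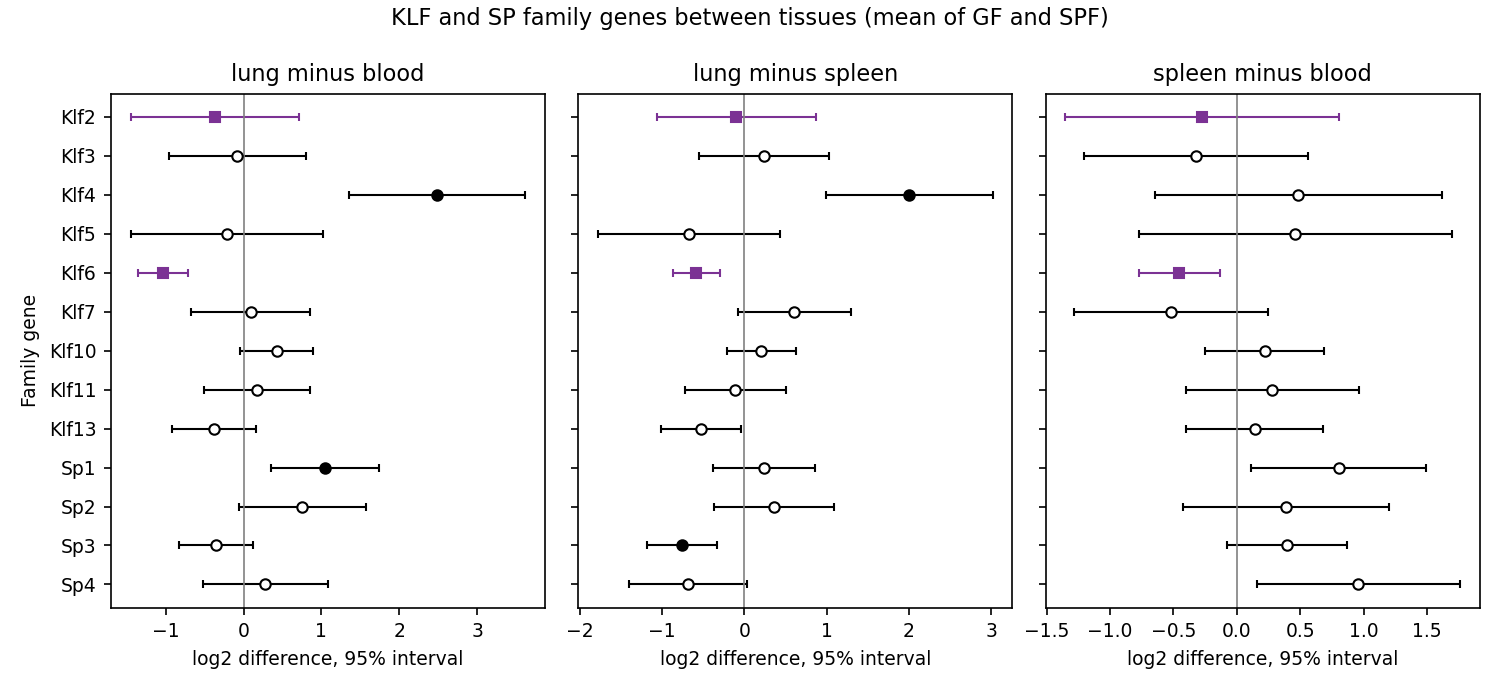
Log2 difference with its 95% interval for 13 Kruppel-like and Sp genes in lung minus blood, lung minus spleen and spleen minus blood, averaged over GF and SPF. Purple squares are Klf2 and Klf6 (description only), and filled circles are other genes with a limma adjusted p under 0.05. Klf6 lies at -1.04, -0.58 and -0.45 and Klf2 at -0.37, -0.10 and -0.27, while Klf4 lies at 2.49 and 2.01 in the lung comparisons.

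Of the genes known from other cell types to be activated by KLF2, 3 were higher in lung neutrophils. Of 6 listed, 5 were tested, and in lung minus blood 3 were called higher and 0 lower, beside 16.5% and 8.11% of all tested genes, with a median of 3.31, while the other 2 had differences below 0 that were not called. As with the lists that follow, the filter on low values kept genes that were high in lung alone. The 3 genes called higher were low or near 0 outside lung. S1pr1, the receptor by which lymphocytes leave tissues and which endothelium also expresses, was 2.74 ± 3.13 in blood (n = 4), 6.31 ± 5.46 in spleen and 181 ± 88.7 in lung (n = 6 each), a lung minus blood difference of 5.53 (SE 0.48, limma adjusted p = 3.11e-10). Thbd, the endothelial anticoagulant thrombomodulin, was 23.1 ± 9.86, 27.6 ± 7.96 and 257 ± 125, a difference of 3.31 (SE 0.28, limma adjusted p = 7.35e-11). Cdkn1a, the cell cycle inhibitor p21, was 6.19 ± 6.26, 0.82 ± 2.02 and 207 ± 79.8, a difference of 4.75 (SE 0.40, limma adjusted p = 9.41e-11). The same 3 genes were the ones called in lung minus spleen, with differences of 4.34, 2.96 and 5.71, beside 17.3% of all tested genes called. In spleen minus blood and in GF minus SPF limma called 0 of the 5 (3 at an unadjusted p under 0.05 in each), beside 5.74% and 1.39% of all tested genes.

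Of 11 listed genes known to be repressed by KLF2, 9 were in the table and 7 passed the filter on low values. All 7 tested were called higher in lung minus blood, with a median of 3.49, beside 16.5% of all tested genes called higher. In lung minus spleen 6 were called, with a median of 3.39, beside 17.3% of all tested genes. The filter on low values kept genes that were high in lung alone, so these counts describe the tested genes only. Ptgs2, the inducible cyclooxygenase, rose from 6.09 ± 2.54 in blood (n = 4) and 17.4 ± 12.7 in spleen to 2999 ± 614 in lung (n = 6 each), a lung minus blood difference of 8.62 (SE 0.68, limma adjusted p = 2.95e-06). The cytokine gene Il1b rose from 6905 ± 3918 in blood to 27071 ± 4044 in lung, by 2.17 (SE 0.20, limma adjusted p = 3.52e-07). Tnf, encoding the cytokine TNF, was 2.31 ± 2.51 in blood and 98.9 ± 26.8 in lung, a difference of 4.58 (SE 0.44, limma adjusted p = 1.36e-09).

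Other members of that list are genes of vessel walls. Kdr, the endothelial VEGF receptor, was also among the endothelial markers, with 3 reads over all blood libraries, 0 over all spleen libraries and 94.8 ± 31.4 normalised counts in lung (n = 6). Its lung level was at least 55.0-fold the spleen floor of 3 counts, and lung minus blood was 5.45 (SE 0.44, limma adjusted p = 4.45e-11). F3, tissue factor, was at 0 reads in spleen and 31.6 ± 7.80 in lung, at least 18.8-fold the spleen floor, and lung minus blood was 3.49 (SE 0.45, limma adjusted p = 4.1e-07), which at equal depth was 1.31 (limma adjusted p = 0.0926). Vcam1, an adhesion molecule also counted with the macrophage markers, was 0.80 ± 1.31 in blood, 41.3 ± 24.6 in spleen and 22.9 ± 5.13 in lung, and was the only list member called in spleen minus blood, by 3.89 (SE 0.44, limma adjusted p = 5.02e-07). In that comparison 5.74% of all tested genes were called. Hif1a, the hypoxia-inducible factor, was 93.9 ± 58.3 in blood and 153 ± 42.2 in lung, a difference of 0.80 (SE 0.24, limma adjusted p = 0.0119) that was lost without GF blood 3 (0.50, limma adjusted p = 0.148) or SPF blood 3 (0.74, limma adjusted p = 0.0617) and with TMM scaling (0.61, limma adjusted p = 0.0544).

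Il1b was also the 1 member of the 7 called between GF and SPF mice, beside 1.39% of all tested genes called in the mean over tissues. It was 2822 and 4289 in GF blood against 10019 and 10489 in SPF blood, and its mean GF minus SPF difference was -0.85 (SE 0.16, limma adjusted p = 0.0143). The call was lost without GF blood 3, SPF blood 3 or SPF blood 4, where limma's adjusted p was 0.0528, 0.0783 and 0.0618, at equal depth (0.0922) and without the trended and robust prior (0.123).

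Of 14 genes listed as regulated by KLF6, 9 were tested, and in lung minus blood 5 were called higher and 1 lower, with a median of 0.60, beside 16.5% higher and 8.11% lower of all tested genes. Cdkn1a, Ptgs2 and Hif1a of this list are also KLF2 list members, with the values above. The fifth, the TGF-beta receptor gene Tgfbr2, was named after its values were seen and had a difference of 0.57 (SE 0.21, limma adjusted p = 0.0475), a call that was lost in 15 of 30 alternatives and was 0.36 (limma adjusted p = 0.292) without GF blood 3. Acvrl1, the endothelial TGF-beta-family receptor ALK1, was 2.33 ± 1.92 in blood (n = 4), 20.6 ± 11.5 in spleen and 157 ± 38.5 in lung (n = 6 each), a lung minus blood difference of 5.16 (SE 0.35, limma adjusted p = 1.16e-12). It was the 1 gene of the list called in spleen minus blood (2.27, SE 0.35, limma adjusted p = 0.000118), beside 5.74% of all tested genes, and at equal depth that difference was 1.497 (limma adjusted p = 0.165). Hmox1, haem oxygenase 1, fell from 186 ± 37.7 in blood and 185 ± 27.1 in spleen to 102 ± 25.3 in lung, by 0.87 against blood (SE 0.20, limma adjusted p = 0.00125). In lung minus spleen 4 were called higher and Hmox1 lower, with a list median of 0.15, beside 17.3% of all tested genes called. In GF minus SPF limma called 0 of the 9 (1 at an unadjusted p under 0.05), beside 1.39% of all tested genes.

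Genes that act upstream of Klf2, the MEK5-ERK5-MEF2 cascade, the class II histone deacetylases, ubiquitin ligases and NF-kB, were listed as 21, of which 17 were tested. In lung minus blood 3 of the 17 were called higher and 0 lower, close to the 16.5% called higher among all tested genes, with a median of 0.13 against 0.15 over all tested genes. Hdac7, a deacetylase that binds MEF2 factors, was 1.25 ± 1.46 in blood (n = 4), 3.31 ± 3.04 in spleen and 23.4 ± 10.5 in lung (n = 6 each), a lung minus blood difference of 2.95 (SE 0.53, limma adjusted p = 8.51e-05). Mapk7, which encodes ERK5, was 4.64 ± 3.16 in blood, 28.7 ± 15.2 in spleen and 15.3 ± 3.50 in lung, a lung minus blood difference of 1.34 (SE 0.49, limma adjusted p = 0.0465). Wwp1, a ubiquitin ligase of KLF2, was 1.91 ± 1.97 in blood and 8.46 ± 3.41 in lung, a difference of 1.36 (SE 0.49, limma adjusted p = 0.0403).

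The calls of Mapk7 and Wwp1 rested on few reads, 75 and 42 over all lung libraries. Leaving out 1 library at a time, the number called in the list ranged from 1 to 5, and both calls were fragile. Mapk7 lost its call without any 1 of the 4 blood libraries, the 6 lung libraries or GF spleen 3 (limma adjusted p 0.0532 to 0.157). Wwp1 lost it without GF blood 2, GF blood 3, SPF blood 3 or any 1 lung library other than SPF lung 2 (limma adjusted p 0.0533 to 0.265). Mapk7 was the only list member called in spleen minus blood (1.92, SE 0.49, limma adjusted p = 0.0194), beside 5.74% of all tested genes. That call was lost without GF blood 3, SPF blood 3 or SPF blood 4 (limma adjusted p 0.0764, 0.116 and 0.0519). It was also lost without the trended and robust prior (limma adjusted p = 0.0809), with only the groups of the comparison (0.0602) and at equal depth (0.344). Hdac7 was the only one called in lung minus spleen (2.07, SE 0.48, limma adjusted p = 0.00191), beside 17.3% of all tested genes. In GF minus SPF limma called 0 of the 17 (1 at an unadjusted p under 0.05), beside 1.39% of all tested genes. The 3 MEF2 genes of the list, named here for the motif in the Klf2 run and after their values were seen, were not called. Mef2a was 53.1 ± 8.84 in blood, 79.3 ± 28.8 in spleen and 83.1 ± 10.3 in lung, Mef2c 9.93 ± 1.85, 15.7 ± 14.03 and 18.2 ± 6.84, and Mef2d 20.2 ± 4.73, 21.1 ± 11.9 and 28.5 ± 15.1.

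**Figure D4:**
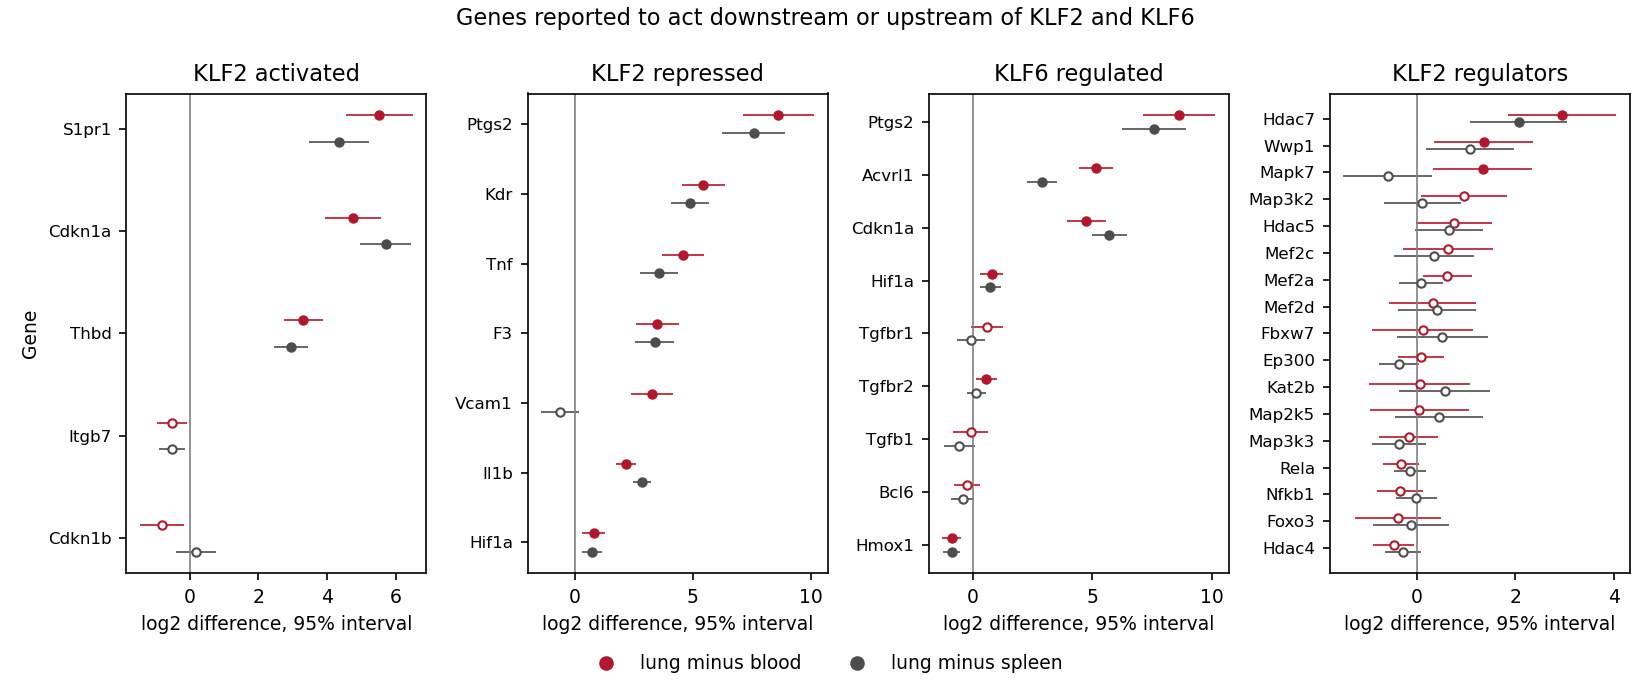
Log2 difference with its 95% interval for tested genes listed as activated by KLF2, repressed by KLF2, regulated by KLF6 or acting upstream of Klf2, in lung minus blood (red) and lung minus spleen (grey), averaged over GF and SPF. Filled circles have a limma adjusted p under 0.05. Ptgs2 lies farthest to the right, at 8.62 and 7.58, while Hmox1 lies at -0.87 in lung minus blood.

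Endothelial markers were called in the same comparisons as genes of these lists. Of 8 tested, 8 were called higher in lung minus blood (median 5.76) and 8 in lung minus spleen (median 5.11). So were 6 of 6 tested epithelial and 4 of 4 tested stromal markers in both comparisons. Here too the filter on low values kept genes that were high in lung alone, so these counts describe the tested genes only. Kdr is both an endothelial marker and a member of the list repressed by KLF2. Of all tested genes, 16.5% were called higher in lung minus blood, and 17.3% were called in either direction in lung minus spleen. Among neutrophil markers 5 of 11 were called lower in lung minus blood (median -0.76), beside 8.11% of all tested genes, and 7 of 11 in lung minus spleen (median -0.64), and none was called higher in either. The part of these cells in the list counts was not tested.

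The genes whose profile over the 16 libraries was most like that of each factor were ranked by Pearson's r of log2(value + 1) among 3218 genes with a mean of at least 50 in a group. The coefficients describe libraries that share tissue, depth and scaling. For Klf2 the highest were Rnf149 (r = 0.90), Ankrd13a (0.87), Rnf11 (0.86), Lamp1 (0.85) and Rpl29 (0.85), and the lowest Arhgef18 (-0.87), Hk1 (-0.86), Ywhag (-0.86), Tgfbr1 (-0.84) and Cyth4 (-0.84). Within groups, after each group mean was taken off, Rnf149 kept an r of 0.90 and Ankrd13a had 0.96.

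For Klf6 the highest were Fcgr3, an IgG receptor (r = 0.94), Selplg, the selectin ligand PSGL-1 (0.94), Ikbkap (0.94), Ubb (0.94) and Amica1 (0.94). Selplg had a median level of 7478 in blood, 5667 in spleen and 4062 in lung, the same order as Klf6. The lowest were Tmem176a (-0.90), Gimap6 (-0.89), Olr1 (-0.89), Ets1 (-0.89) and Cnn3 (-0.89), whose medians were highest in lung, for example 61.6 for Cnn3 against 0.23 in blood. Within groups the coefficients were smaller, at 0.71 to 0.83 for the 5 highest and -0.60 to -0.52 for the 5 lowest.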

How the data were processed

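RNA of sorted Ly6G+ neutrophils was amplified and sequenced in 16 libraries, per the labels' protocols, which name paired-end reads and no strand-marking step. The submitters' processing notes name CASAVA, RSEM 1.3.1, limma and mm10. The authors deposited 1 linear signal value per gene and library, with no unit in the header. Within a library, low signal values are odd multiples of the smallest one, which is the pattern of RSEM's estimated counts after 0.5 is added and a library factor applied. Reads were recovered by inverting this relation, and 91.4% to 98.7% of values under 10 reads per library lay within 0.05 of a whole read. Depth was 104213 to 3033941 reads per library. The annotation version and the scaling are not given in the sources used here. All table columns were used. Gene models came from GENCODE M21 and start-site sequence from RefSeq, where both genes matched.

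A gene was tested where 2 or more libraries had a value of 10 or higher (8299 of 10296). Differences were fitted in limma 3.58.1 (R 4.3.3) on log2(value + 1), with 6 group means and a prior that was trended and robust. Tests were two-sided, and p-values were adjusted by Benjamini-Hochberg over all genes of each of 16 comparisons (threshold 0.05). Fold changes on this scale can understate changes of low genes. The offset is larger in shallow libraries and can also make a difference where there are no reads. Col1a2, at 0 in all 4 blood libraries, had a GF minus SPF difference of 0.99 in blood. The script was tested on simulated data with normal noise on the log2 scale. Those data had no separate counting error and no depth differences, so calls on few reads were not covered. GF and SPF labels were permuted within tissues in an exact test of 3 quantities. Intervals of single values are 95% Poisson intervals.

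The members, the 14 gene lists and the tests were chosen with earlier results of these data known. One listed gene is not reported here and was taken out of its list, with its counts and median, after the results were seen. Named were all tested family genes, up to 5 called list genes of smallest p in lung minus blood and up to 3 more in lung minus spleen, and the 5 highest and 5 lowest correlates of each member, leaving out predicted models and pseudogenes. Alternatives changed the pseudocount, filter, scaling, prior, weights, depth, block and libraries used. Reads of genes that overlap others cannot be assigned with certainty, since no strand-aware counting was stated.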

Additional observations from a re-analysis of the deposited data

Results flagged for a closer look

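Cdkn1b, the cell cycle inhibitor p27 and a gene listed as activated by KLF2, had a GF minus SPF difference that was 2.60 higher in spleen than in blood on the log2 scale (SE 0.63, limma adjusted p = 0.0409). It drew attention because the status effect itself differed between these 2 tissues, in 1 of 138 interaction tests of 46 list genes. Of all tested genes, 0.759% were called in the spleen-against-blood interaction and 0.012% in each of the other 2. The level of Cdkn1b was 25.3 and 29.6 normalised counts in GF blood against 93.5 and 81.5 in SPF blood. In spleen it was 50.7, 32.1 and 24.0 in GF against 22.9, 14.9 and 9.40 in SPF mice, from 2 to 13 reads per library. The GF libraries were thus lower in blood and higher in spleen. The value of 29.6 in GF blood 3 rested on 4 reads. In blood, 30.5% of all tested genes had GF libraries below SPF libraries without overlap, and no such share was counted for spleen or lung. In lung it was 18.1 to 26.1 in GF and 33.5, 30.3 and 41.6 in SPF mice, and its GF minus SPF difference was 0.93 above that in blood (limma adjusted p = 0.751).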

How the results depend on the processing

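The tissue differences of Klf6 kept their sign in lung minus blood and lung minus spleen under all 30 alternatives (-1.23 to -0.81 and -0.71 to -0.51 over both kinds of mice). Quantile normalization moved Klf6 to -0.92 in lung minus blood and -0.27 in spleen minus blood in SPF mice, and to -0.11 in spleen minus blood over both. GF minus SPF of Klf2 stayed negative over the tissues (-1.24 to -0.74 leaving out 1 library) and passed the threshold with array weights (-1.11), without the 5 shallow libraries (-0.95) and without SPF spleen 1 (-1.24). It ranged from -2.23 to -0.73 in spleen and from -0.21 to 0.21 in lung without 1 library. In blood (-1.44) it passed only when the 2 blood groups were fitted alone, a fit whose share of called genes was not counted. The spleen-against-blood difference of that effect was 0.014 with a pseudocount of 5 and -0.78 to 0.71 without 1 library. For Klf6, leaving out 1 library gave -0.035 to 0.093 in the mean GF minus SPF difference, by limma and by permutation, -0.013 to 0.25 in lung and -0.33 to 0.023 for lung against spleen. The permuted mean without 1 library was -1.24 to -0.74 for Klf2 and -1.23 to -0.77 for the ratio. The cause of these changes was not tested.

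Called among other Kruppel-like and Sp genes in lung minus blood were 0 with a limit of 100, where fewer genes were tested, 1 with TMM, 1 with quantile normalization, 0 at equal depth and 1 to 2 without 1 library. In lung minus spleen they were 0, 2, 4 and 1 under the first 4 settings and 2 without any 1 library. Counts over all genes were 2043 (lung minus blood), 476 (spleen minus blood), 1435 (lung minus spleen) and 115 (GF minus SPF), against 919, 191, 906 and 60 at equal depth (104211 reads). A limit of 100 gave 935, 566 and 196 in the first, the third and the last of these. Spleen minus blood gave 230 with quantile normalization, 171 without trended and robust priors, 216 with its own groups alone and 92 to 657 without 1 library. GF minus SPF gave 10 without those priors, 276 with weights, 194 without shallow libraries and 38 to 367 without 1 library. Same-numbered libraries did not deviate together (9 pairs, r -0.13 to 0.07, none over 0.1), so numbers were not taken as pairs. With the replicate block (correlation -0.04) the counts were 1994, 458, 1397 and 130, Klf2 had -0.997 (limma adjusted p = 0.219) and Klf6 0.034 (limma adjusted p = 0.919) in mean GF minus SPF, and Tgfbr2 in lung minus blood missed the threshold (limma adjusted p = 0.0504). Planned count tests on recovered reads were not run, since in part of the libraries fewer than 95% of low values came out whole. Klf2 rested on 1 to 294 reads per library, and at equal depth the calls of Klf4, Sp1, Sp3 and F3 were lost in lung minus blood or lung minus spleen.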
